A study of Mus musculus with 4 samples.

Results

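Imprinted genes are expressed mainly from the allele of 1 parent. Described here are necdin (Ndn) and 9 further imprinted genes, Magel2, Snrpn, Nnat, Dlk1, Grb10, Peg3, Zim1, Peg10 and Impact, in septal tissue of mouse brain. They are 10 of the 15409 genes listed in the data, matched by gene symbol, and each symbol was found on 1 row. They were picked with the genotype values in view, because Ndn was higher in TCRb-/- than in WT tissue in both experiments. Differences between genotypes are therefore given for these 10 genes as a description without a test. Differences between the experiments were not used to pick them and were tested.

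The data were 4 RNA sequencing libraries, 2 of TCRb-/- tissue, from mice with a deleted T cell receptor beta gene, and 2 of WT tissue, from mice with an intact receptor. Mice of both genotypes had been restrained for 30 min a day on 3 days, and tissue was taken 1.5 h after the final restraint, so that there was no unstressed group. Each library held septal tissue pooled from 4 to 5 mice, and replicate 1 of each genotype came from experiment 1 and replicate 2 from experiment 2. A replicate is thus a pool of animals, and the labels name the experiment as the batch. The sources used here give no strain, age or sex of the mice.

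Imprinted genes lie in clusters whose control elements are methylated in the germ line of 1 parent, and this mark decides which allele is silenced. Many are active in the developing and adult brain, above all in the hypothalamus, where they act on growth, feeding and social or maternal behaviour. Ndn, Magel2 and Snrpn lie in the mouse counterpart of the Prader-Willi region and are expressed from the paternal allele, as are Nnat, Dlk1, Peg3, Peg10 and Impact. Zim1, next to Peg3, is expressed from the maternal allele, and Grb10 is paternal in neurons and maternal in most other tissues.

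The libraries held between 19988137 and 26210790 reads, so that 1 read was worth between 0.0382 and 0.05 CPM (reads scaled to a library total of 1000000). Trbc2, a constant segment of the deleted receptor chain, had 0 reads in both TCRb-/- libraries, and 169 and 86 reads in the WT libraries. Of 12 septal marker genes 11 were listed, and their summed level lay between 428 and 500 CPM in the 4 libraries, with Sst giving 168 to 204 CPM of it. Without overlap of the genotypes, 2 lay lower (Chat and Lhx8) and 2 higher (Crhr2 and Trpc4) in TCRb-/-, against 8.04% and 9.76% of all genes. Of the 11, 5 had an unadjusted p below 0.05 in limma with the experiment as a block, against 5.64% of all genes. A gene was tested if its mean reached 1 CPM, with limma on log2(CPM + 1), a scale that understates the change of low genes. This left 13912 genes, among them all 10 described. With 2 libraries a group, the smallest p that exact permutation allows for 1 gene is 0.333, so that p-values rest on the spread estimated across all genes.

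Ndn is a single-exon gene at chr7:62346569-62350262 on the plus strand of GRCm38 in the GENCODE annotation. Its RefSeq model starts further downstream, at chr7:62348277, and its promoter window and the distances from Ndn given below are taken from that start. Its protein, necdin, belongs to the MAGE family, binds the cell cycle factor E2F1 and restrains the division of neuronal precursors. Snrpn, on the same chromosome at chr7:59982495-60140219 on the minus strand, encodes SmN, the neuronal form of a core protein of the splicing machinery. Nnat lies at chr2:157560078-157562522 on the plus strand and encodes neuronatin, a small membrane protein of the endoplasmic reticulum. RefSeq promoter windows of GRCm38.p6, from 250 bases before to 50 bases after an annotated start, were found for 8 of the 10 genes. The palindrome CGCATGCG, the core of the site bound by the transcription factor NRF1, stood in windows of Ndn, Nnat and Snrpn and in none of the windows found for the other 5. The motif was chosen after the sequences had been read. It occurs in 1.87% of 32851 promoter windows and reads the same on both strands. The stretches of 30 bases that hold it are shown because these were the 3 genes with the highest levels per length, with CGCATGCG in capitals, each on the strand of its gene.
Ndn, 23 bases before the start, chr7:62348243-62348272: gcttcccaacaCGCATGCGcaatatcgcat
Nnat, 25 bases before the start, chr2:157560042-157560071: tcccccaagcgCGCATGCGcacttaggtgg
Snrpn, most upstream start, chr7:60450222-60450251: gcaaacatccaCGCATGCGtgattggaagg
Snrpn, next start, chr7:60140285-60140314: gcaaacatccaCGCATGCGtgatgggaggg
Snrpn, next start, chr7:60048031-60048060: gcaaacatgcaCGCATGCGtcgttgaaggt
Snrpn, last start, chr7:60005150-60005179: cagccattgcctgggaCGCATGCGtaggga
In the Snrpn windows the core began 63, 78 and 71 bases before the first 3 starts and 36 bases after the last. Among 36 other imprinted genes with a window, Commd1 and Snurf held the core, and Snurf shares a start with Snrpn. A match is a string of letters and no measure of binding.

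Magel2, the single-exon neighbour of Ndn at chr7:62377010-62381640 on the plus strand, has no CGCATGCG in its window. The 250 bases before its RefSeq start, chr7:62376729-62376978, are shown because, unlike Ndn, Magel2 was not higher in TCRb-/- in either experiment. A link between sequence and level was not tested. The motif GGGCGG, the core of a GC box, is in capitals.
Magel2: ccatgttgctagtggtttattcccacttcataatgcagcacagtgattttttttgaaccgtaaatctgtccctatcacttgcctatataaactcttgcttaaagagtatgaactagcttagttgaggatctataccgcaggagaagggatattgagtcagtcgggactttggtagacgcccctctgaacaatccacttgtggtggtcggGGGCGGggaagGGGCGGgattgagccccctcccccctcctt
There were 2 GC box cores in this stretch and 2 in the window of Ndn, both strands counted. GGGCGG occurs in 35.7% of all promoter windows. The windows of Ndn and Magel2 held 11 and 10 CpG dinucleotides, against a median of 7 and quartiles of 3 and 20 over all windows.

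Ndn was alone among the 10 genes in that both TCRb-/- libraries lay above both WT libraries. It was measured at 1106 CPM in TCRb-/- replicate 1 and 1515 CPM in TCRb-/- replicate 2. In WT it was 757 CPM in replicate 1 and 1008 CPM in replicate 2. Each genotype was lower in experiment 1, and the lower TCRb-/- pool was still above the higher WT pool. The exact 95% counting intervals of those neighbouring values, 1093 to 1119 and 995 to 1021 CPM, did not overlap, but they cover counting error only and leave out the spread between pools. The means were 1310 ± 289 CPM (SD, n = 2) in TCRb-/- and 883 ± 178 CPM (SD, n = 2) in WT. The ratio of TCRb-/- to WT was 1.46 in experiment 1 and 1.50 in experiment 2, or 0.55 and 0.59 on the log2(CPM + 1) scale. In bulk tissue, more cells that express a gene and more RNA per cell cannot be told apart.

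Over all genes tested, TCRb-/- lay above WT without overlap in 9.76% and below it in 8.04%. Among the 10 genes this held for Ndn (higher) and for none in the lower direction. A difference of at least 0.5 in both experiments, upward in TCRb-/-, was found in 42 of 13912 genes (0.302%). Ndn was the second most abundant of these 42. The most abundant was Ttr, the transthyretin gene of the choroid plexus, with 1204 and 4478 CPM in the TCRb-/- pools of experiments 1 and 2, and 638 and 2591 CPM in the WT pools. Ttr was higher in TCRb-/- by 0.92 in experiment 1 and 0.79 in experiment 2. By genotype, limma called 0 genes (0%) at an adjusted p below 0.05, with 43 genes (0.309%) at an unadjusted p below 0.05. With the experiment as a block it called 2 genes (0.0144%), Ttr, higher in TCRb-/- (adjusted p = 0.0323), and Trbc2, lower.

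The libraries also differed in genes of neighbouring tissue, and these values stand beside the Ndn difference. On a list of 14 choroid plexus genes all 14 lay higher in TCRb-/- tissue in each experiment, against 27% of all genes. Their summed level was 1393 and 4920 CPM in the TCRb-/- pools of experiments 1 and 2, and 766 and 2887 CPM in the WT pools, and none of the 14 was at 0 in any library. Like Ndn, 9 of the 14 were higher by at least 0.5 in both experiments, against 0.302% of all genes. All 14 had an unadjusted p below 0.05 in limma with the experiment as a block, against 5.64% of all genes. The genotypes overlapped in each of the 14 when the experiments were not paired. Pan-neuronal markers, with a sum between 7432 and 8190 CPM, had medians of -0.14 and -0.07 for TCRb-/- minus WT in experiments 1 and 2. Striatal markers summed to 3211 and 624 CPM in the TCRb-/- pools of experiments 1 and 2, and to 2861 and 1596 CPM in the WT pools. Their median difference was 0.18 in experiment 1 and -1.30 in experiment 2. The part of tissue composition in the Ndn difference was not tested.

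**Figure D1:**
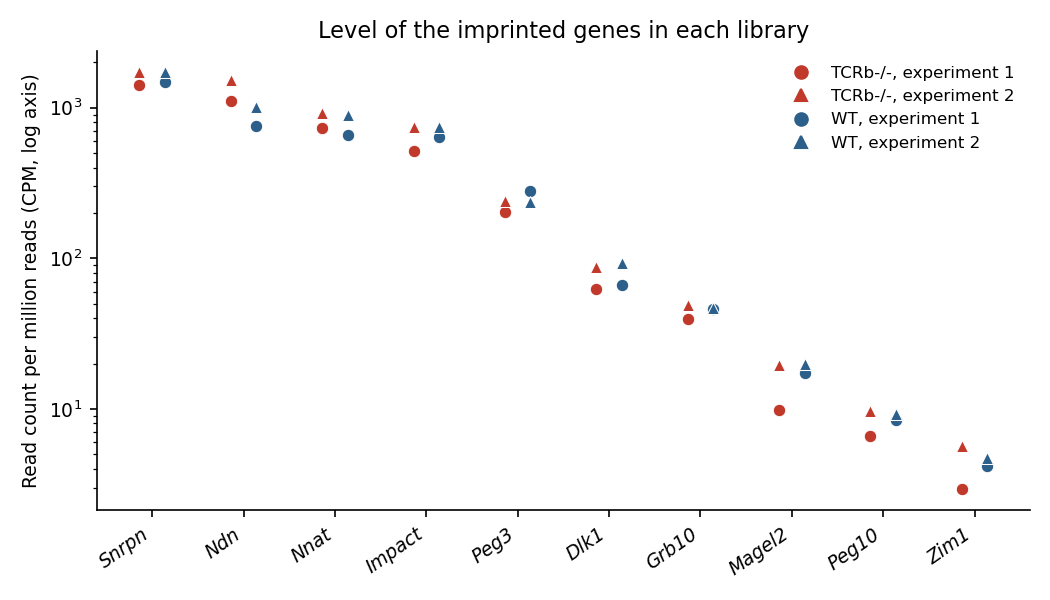
Level of the 10 imprinted genes in each library, in CPM on a log axis, with TCRb-/- in red, WT in blue, circles for experiment 1 and triangles for experiment 2. Both red Ndn points (1106 and 1515 CPM) lie above both blue ones (757 and 1008 CPM), and in the other 9 genes the colours overlap.

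The neighbours of Ndn in the Prader-Willi cluster did not show its pattern. Magel2 encodes a MAGE protein that works with the ubiquitin ligase TRIM27 in the recycling of membrane proteins from endosomes. The gene starts 28.7 kb from the RefSeq start of Ndn. It was measured at 9.80 and 19.5 CPM in the TCRb-/- pools of experiments 1 and 2, and at 17.3 and 19.9 CPM in the WT pools. The TCRb-/- pool of experiment 1 stood apart with 241 reads, and the other 3 libraries were close together. The difference between genotypes was -0.76 in experiment 1 and -0.03 in experiment 2. There were 113 and 77.8 Ndn reads per Magel2 read in the TCRb-/- libraries, and 43.8 and 50.5 in the WT libraries.

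Snrpn had 1407 and 1734 CPM in the TCRb-/- pools of experiments 1 and 2, and 1485 and 1716 CPM in the WT pools. The pools differed by experiment and hardly by genotype, with -0.08 in experiment 1 and 0.02 in experiment 2. As a measure within each library, 0.786 and 0.873 reads of Ndn were counted per Snrpn read in TCRb-/- replicates 1 and 2. In WT replicates 1 and 2 there were 0.510 and 0.588. These ratios do not depend on the library total, but they hold the Ndn counts that led to the choice of the genes. The same holds for the ratios of Ndn to Magel2 above and to Maged1 below, and none is independent evidence. Reads of Snrpn can be shared with Snurf, which is not among the listed rows, and with the overlapping gene model Gm38393, listed at 7.48 to 8.59 CPM.

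Mkrn3, a maternally silenced ubiquitin ligase gene 71.9 kb from the start of Ndn, was near the low end of what the depth resolves, with 43 to 75 reads a library. Its levels were 3.05 and 2.15 CPM in TCRb-/- and 2.75 and 2.37 CPM in WT, replicates 1 and 2 in that order, and the genotypes overlapped. Ube3a, a ubiquitin ligase gene of the same cluster that neurons express from the maternal allele, had 85.9 and 101 CPM in TCRb-/- and 117 and 108 CPM in WT. Both TCRb-/- values were below both WT values, opposite to Ndn, and limma did not call it by genotype (adjusted p = 1.00). Peg12, another gene of the cluster, was not analysed here.

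Within 3 Mb on either side of the Ndn start, 18 genes were listed, and 4 of them are on the imprinted gene lists (Ndn, Magel2, Snrpn and Mkrn3). The lists may be incomplete, and whether the other genes of the stretch are imprinted was not examined. Of the 18, 4 were higher and 6 lower in TCRb-/- in both experiments, against 27% and 24.5% of all genes. Ndn was the only gene of this stretch with a difference of at least 0.5 in both. The other 17 lay between -0.76 and 0.52 in experiment 1 and between -0.67 and 0.42 in experiment 2. Klf13, a zinc finger transcription factor gene, was the other gene without overlap upward, with differences of 0.12 and 0.13. Downward there were 3 without overlap, Gm27252, Fan1 and Mphosph10. Over all genes the shares without overlap were 9.76% upward and 8.04% downward.

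**Figure D2:**
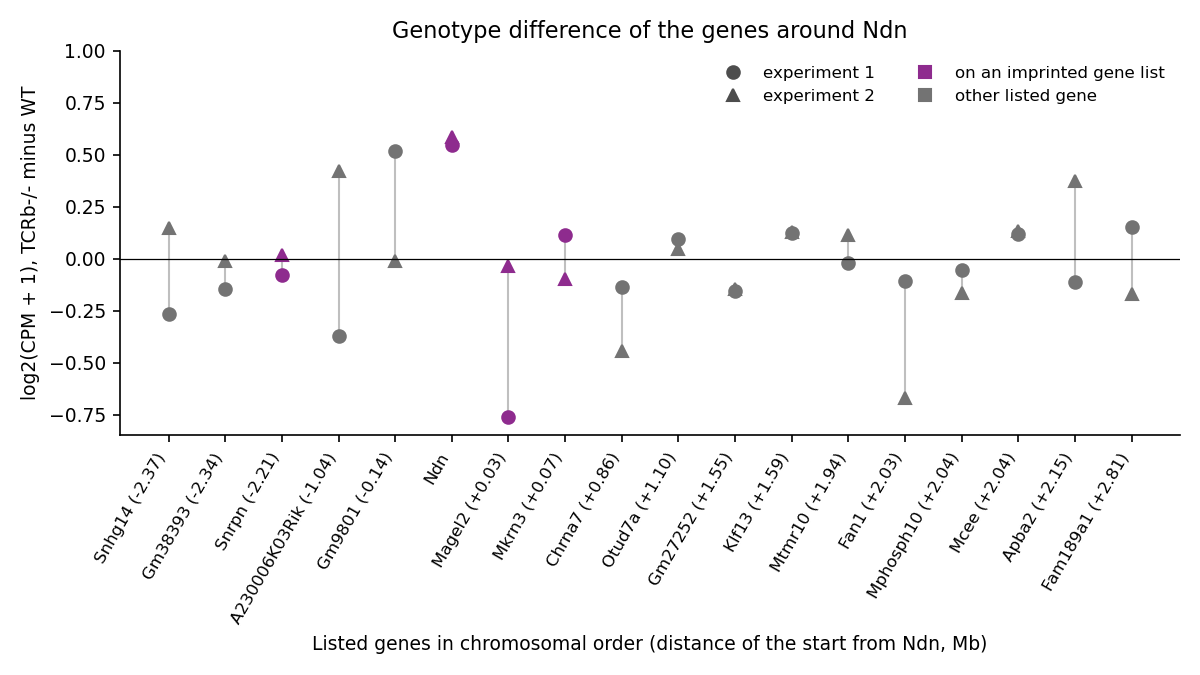
Difference in log2(CPM + 1) between TCRb-/- and WT for the 18 listed genes within 3 Mb of the Ndn start, in chromosomal order with the distance in Mb, circles for experiment 1 and triangles for experiment 2, imprinted list genes in purple. Ndn is at 0.55 and 0.59, and no other gene of the stretch reaches 0.5 in both experiments.

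Nnat was the other gene of the 10 that was higher in TCRb-/- in both experiments, by 0.16 and 0.03. Its levels were 737 and 917 CPM in the TCRb-/- pools of experiments 1 and 2, and 660 and 900 CPM in the WT pools. The genotypes overlapped, and the libraries paired by experiment. Nnat lies inside an intron of Blcap on the opposite strand, and the sources used here do not give the strand setting of the read counting. Blcap, an apoptosis-related gene, had 340 and 376 CPM in TCRb-/- and 335 and 375 CPM in WT.

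Dlk1 (chr12:109452823-109463336) encodes a transmembrane protein with EGF repeats, related to ligands of the Notch receptor. It had 62.6 and 87.5 CPM in the TCRb-/- pools of experiments 1 and 2, and 66.3 and 92.4 CPM in the WT pools. The genotype difference was -0.08 in both experiments, small beside the gap between experiments. Its cluster also holds the maternally expressed non-coding RNAs Meg3 and Rian. Meg3 was at 290 and 187 CPM in TCRb-/- and 255 and 193 CPM in WT, and Rian at 36.9 and 28.9 CPM in TCRb-/- and 26.7 and 30.6 CPM in WT. Neither separated the genotypes. Of the other genes of the cluster, Rtl1, a retrotransposon-derived gene, lay between 1.25 and 1.65 CPM and Dio3, which inactivates thyroid hormone, between 3.00 and 3.97 CPM.

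Peg3 and Zim1, zinc finger genes side by side on chromosome 7 (chr7:6703892-6730431 and chr7:6671269-6696450, both minus strand), were lowest in the TCRb-/- pool of experiment 1. Peg3 had 203 and 239 CPM in the TCRb-/- pools of experiments 1 and 2, and 278 and 237 CPM in the WT pools. It was highest in the WT pool of experiment 1, and the pools of experiment 2 nearly coincided. The differences between genotypes were -0.45 and 0.01. Zim1, the gene with the fewest reads of the 10 (72 to 114 a library), had 2.93 and 5.70 CPM in TCRb-/- and 4.20 and 4.70 CPM in WT. Its TCRb-/- pools enclosed the WT pools, with differences of -0.40 and 0.23. Usp29, a deubiquitinase gene that starts beside Peg3 on the other strand, had 38.0 and 55.3 CPM in TCRb-/- and 46.2 and 51.3 CPM in WT.

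Grb10 (chr11:11930508-12038683, minus strand) encodes an adaptor protein that dampens insulin and IGF1 receptor signalling. It had 39.5 and 49.1 CPM in the TCRb-/- pools of experiments 1 and 2, and 46.0 and 46.9 CPM in the WT pools, so that WT lay inside the range of TCRb-/-. Peg10 (chr6:4747306-4760517), derived from a retrotransposon and able to form capsids, had 6.63 and 9.71 CPM in TCRb-/- and 8.39 and 9.26 CPM in WT. Impact, on chromosome 18, encodes an inhibitor of the stress kinase GCN2. It had 514 and 749 CPM in TCRb-/- and 636 and 744 CPM in WT. In Peg10 and Impact, as in Grb10, the TCRb-/- pool of experiment 1 was the lowest library and that of experiment 2 the highest. Sgce, the sarcoglycan gene paired with Peg10, had 46.3 and 46.0 CPM in TCRb-/- and 38.7 and 45.4 CPM in WT, without overlap of the genotypes.

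Counted over the 10 genes, TCRb-/- tissue had the higher level in both experiments for 2 (Ndn and Nnat), against 27% of all genes. Another 2 were lower in both (Magel2 and Dlk1), against 24.5% of all genes. The remaining 6 were lower in experiment 1 and higher in experiment 2, against 23.9% of all genes. The median difference of the 10 was -0.26 in experiment 1 and 0.02 in experiment 2, where that of all genes was 0.01 and 0.00. In 8 of the 10, all but Ndn and Nnat, TCRb-/- replicate 1 was the lowest of the 4 libraries, against 23.7% of all genes. These counts come from the contrast the genes were picked on and from overlapping values of the same libraries, and nothing is read from them. Hypothalamic markers gave 8 of 11 lowest in TCRb-/- replicate 1 and 6 of 11 lower in experiment 1 and higher in experiment 2. Thalamic markers gave 5 of 8 on both counts, and genes of the MAGE family 4 of 6 and 3 of 6. Striatal and choroid plexus markers gave 0 of 10 and 0 of 14 on both counts. Whether hypothalamic or thalamic tissue in the dissection had a part in the counts of the 10 genes was not tested.

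**Figure D3:**
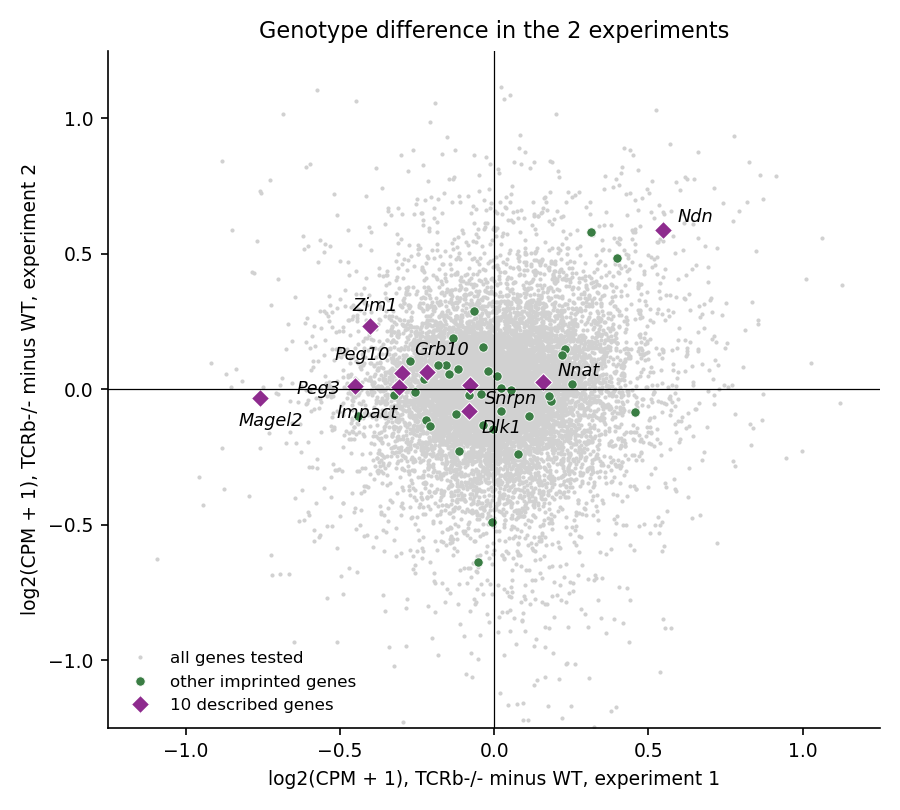
Difference in log2(CPM + 1) between TCRb-/- and WT in experiment 1 (horizontal axis) and experiment 2 (vertical axis), with all tested genes in grey, 37 other imprinted genes in green and the 10 described genes in purple. Ndn is the only purple point above 0.5 on both axes, Magel2 is the lowest in experiment 1 at -0.76, and 19 grey genes lie beyond the axes.

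The gap between the experiments was the larger pattern for most of the 10 genes. With experiment 2 set against experiment 1 over all 4 libraries, limma called 4 of the 10 genes higher in experiment 2 and 0 lower. Over all genes it called 8.95% higher and 14.7% lower. The 4 were Dlk1, Nnat, Impact and Snrpn. Without the mean-variance trend none of the 4 was called, with limma adjusted p between 0.0506 and 0.104, while the calls over all genes fell from 3292 to 629. With 1 library left out, Snrpn kept its call in 1 of 4 fits, Impact in 3 of 4 (not without TCRb-/- replicate 1), and Nnat and Dlk1 in 4 of 4. The median difference of the 10 was 0.38, beside -0.03 for all genes. In 9 of the 10, all but Peg3, experiment 2 was higher in both genotypes, against 35.1% of all genes. The experiments did not overlap in 8, all but Ndn and Peg3, against 30.1% of all genes.

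Dlk1 was 1.40-fold higher in experiment 2 in TCRb-/- and 1.39-fold higher in WT, a mean difference of 0.47 on the log2 scale (SE 0.07, limma adjusted p = 0.0071). Nnat was 1.25-fold and 1.36-fold higher, with a mean difference of 0.38 (SE 0.08, limma adjusted p = 0.0133). For Impact the ratios were 1.46 in TCRb-/- and 1.17 in WT, with a mean difference of 0.38 (SE 0.10, limma adjusted p = 0.0302). These 3 genes rose in both genotypes, Dlk1 by nearly the same ratio in each. Snrpn had the smallest called change, 1.23-fold in TCRb-/- and 1.16-fold in WT, a mean of 0.25 (SE 0.07, limma adjusted p = 0.0402). After quantile normalization Snrpn was no longer called, with a difference of 0.11 and a limma adjusted p of 0.365.

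Ndn was 1.37-fold higher in experiment 2 in TCRb-/- and 1.33-fold higher in WT. The mean difference of 0.43 (SE 0.21) was not past the threshold, with a limma adjusted p of 0.174, because the fit without genotype counts the gap between genotypes as spread. With genotype as a term, the difference was the same and the limma adjusted p was 0.0063. For Magel2 the call changed in the same way, with a mean difference of 0.56 (SE 0.22) and a limma adjusted p of 0.102 without and 0.0492 with genotype as a term. Its ratios were unequal, 1.99 in TCRb-/- and 1.15 in WT. With genotype as a term, limma thus called 6 of the 10 genes higher and 0 lower, against 9.29% and 15.4% of all genes.

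For the other 4 genes neither fit called a difference. Zim1 differed by 0.45 (SE 0.19, limma adjusted p = 0.125) and Peg10 by 0.31 (SE 0.15, limma adjusted p = 0.175). Grb10 differed by 0.17 (SE 0.10, limma adjusted p = 0.231). Peg3 had a mean of 0.00 (SE 0.13, limma adjusted p = 0.993), from 0.23 in TCRb-/- and -0.23 in WT. For Peg3 the genotypes thus moved in opposite directions between experiments, and a difference of that kind was not tested.

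**Figure D4:**
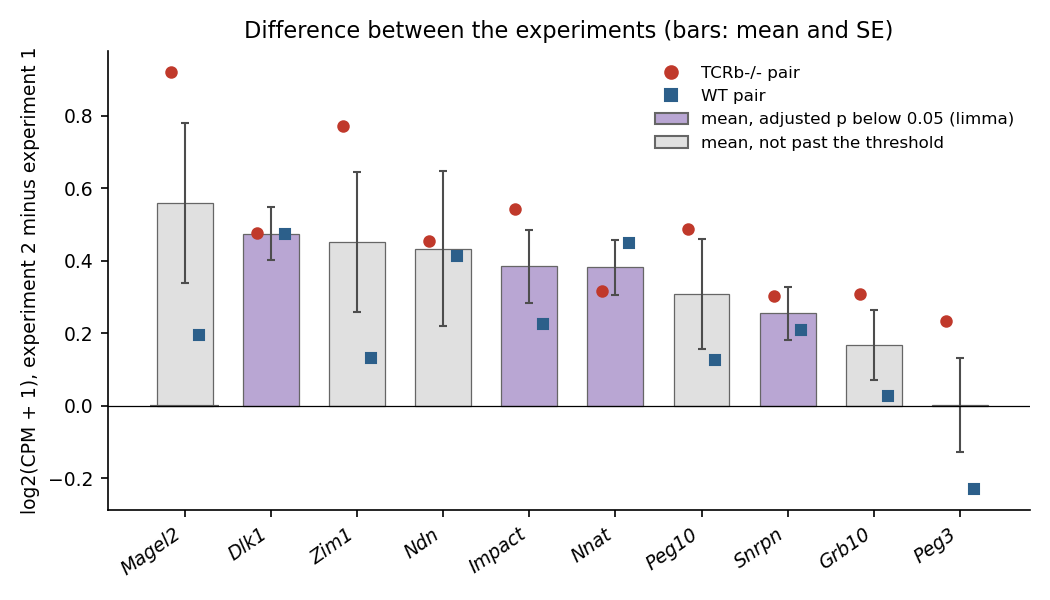
Difference in log2(CPM + 1) between experiment 2 and experiment 1 for the 10 genes. Bars give the mean with its SE from limma without genotype as a term, coloured where the adjusted p was below 0.05 (Dlk1, Impact, Nnat and Snrpn), red circles the TCRb-/- pair and blue squares the WT pair, which lie above 0 in every gene but Peg3.

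Markers of the septum and of regions next to it moved with the experiment as well. Of 11 tested septal markers, limma called 3 higher in experiment 2 (Zic1, Zic4 and Nts) and 1 lower (Slc5a7). The shares over all genes were 8.95% and 14.7%, and the median difference of the 11 was 0.25. Hypothalamic markers were listed for 14 of 18 genes. Of the 11 tested, limma called 7 higher in experiment 2 and 0 lower, against 8.95% and 14.7% of all genes. The median difference of the 11 was 0.67. The summed level of the 14 listed was 163 and 177 CPM in the pools of experiment 1 and 495 and 422 CPM in those of experiment 2. Oxt, the oxytocin gene, rose from 16.5 to 129 CPM in TCRb-/- and from 21.3 to 95.9 CPM in WT. Hcrt, Pmch, Kiss1 and Nkx2-1 were not among the listed rows. All 10 striatal markers were called lower, against 14.7% of all genes, with a median of -1.54. Choroid plexus markers had a median of 1.46, with 13 of 14 called higher, against 8.95% of all genes. Pan-neuronal markers had a median of -0.09, with 3 of 10 called higher and 3 lower, against 8.95% and 14.7% of all genes. The part of these tissues in the difference of the 10 imprinted genes was not tested.

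Transcript length moved with the experiment too. Genes under 2 kb had a median difference of 0.16 (3307 genes), genes of 2 to 4 kb -0.02 (5502 genes) and longer genes -0.21 (4775 genes). As a description across 13584 genes, which share the 4 libraries, the Spearman correlation of the difference with transcript length was -0.470. Nnat, at 1213 bases, was the shortest of the 10 in the annotation. Among those of the 10 over 4 kb, Dlk1 (4653 bases), Magel2 (4631 bases) and Zim1 (7693 bases) differed by 0.47, 0.56 and 0.45. Peg10 (6667 bases) differed by 0.31, Grb10 (5061 bases) by 0.17 and Peg3 (8694 bases) by 0.00. The part of transcript length in these differences was not tested.

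Per transcript length, the order of the 10 genes was the same in all 4 libraries. From the highest it was Snrpn, Nnat, Ndn, Impact, Peg3, Dlk1, Grb10, Magel2, Peg10 and Zim1, on a scale of CPM per kilobase of transcript (RPKM, with the longest GENCODE basic transcript). Snrpn lay between 678 and 835 RPKM and Nnat between 544 and 756 RPKM, so that these neighbours in the order overlapped across libraries. Ndn was at 299 and 410 RPKM in TCRb-/- and 205 and 273 RPKM in WT. Its place depends on the gene model, since the RefSeq model spans 1652 bases and the GENCODE model 3694. With the RefSeq span Ndn had 669 and 917 RPKM in TCRb-/- and 458 and 610 RPKM in WT, within the range of Snrpn and Nnat or beyond it. Impact lay between 136 and 199 RPKM, Peg3 between 23.3 and 32.0 RPKM and Dlk1 between 13.5 and 19.9 RPKM. The lowest were Grb10 at 7.80 to 9.71 RPKM, Magel2 at 2.12 to 4.31 RPKM, Peg10 at 0.99 to 1.46 RPKM and Zim1 at 0.38 to 0.74 RPKM.

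Of 48 other imprinted genes on a list, 40 were listed and 37 were tested. By genotype, limma called 0 of the 37, and 0 had an unadjusted p below 0.05. With the experiment as a block it also called 0, and 4 had an unadjusted p below 0.05, against 5.64% of all genes. In both experiments 7 were higher and 13 lower in TCRb-/-, against 27% and 24.5% of all genes. The median difference was -0.04 in experiment 1 and -0.01 in experiment 2. TCRb-/- lay above WT without overlap for H13 and Sgce, and below it for Ube3a, Rasgrf1, Kcnk9, Zrsr1, Zdbf2 and Gpr1. Over all genes the shares were 9.76% above and 8.04% below. Some gaps were small, with nearest values in TCRb-/- and WT of 385 and 387 CPM for Rasgrf1 and 1.708 and 1.717 CPM for Gpr1. None of the 37 was higher by 0.5 or more in both experiments. Igf2, the growth factor gene, came nearest together with Cdkn1c, a cell cycle inhibitor gene. Igf2 had 15.7 and 36.2 CPM in the TCRb-/- pools of experiments 1 and 2, and 11.7 and 25.6 CPM in the WT pools, with differences of 0.40 and 0.48. Cdkn1c had 10.2 and 24.8 CPM in TCRb-/- and 7.97 and 16.3 CPM in WT, with differences of 0.32 and 0.58. In both genes the genotypes overlapped.

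By experiment, limma called 6 of the 37 higher in experiment 2 and 4 lower, against 8.95% and 14.7% of all genes. The same 6 and 4 counts were found with genotype as a term, against 9.29% and 15.4% of all genes. Igf2 (1.11, SE 0.19, limma adjusted p = 0.0087) and Cdkn1c (1.08, SE 0.20, limma adjusted p = 0.0117) had the largest rises on the log2(CPM + 1) scale, which shrinks the change of low genes. Gnas, which encodes the stimulatory G protein subunit, rose by 0.69 (SE 0.08, limma adjusted p = 0.0050). The other 3 were Slc22a18 (0.85, from 10 to 36 reads a library, with ratios of 2.95 in TCRb-/- and 4.10 in WT), Calcr, the calcitonin receptor gene (0.75), and Nap1l5 (0.57). The 4 that fell were Meg3 (-0.52), Ppp1r9a (-0.49), Ago2 (-0.40) and Peg13 (-0.21). Paternally expressed genes gave 2 higher and 1 lower of 20 tested, and maternally expressed genes 3 and 3 of 16. Plagl1, a zinc finger gene, differed by 0.16 (limma adjusted p = 0.269) and Mest, a hydrolase-like gene, by -0.19 (limma adjusted p = 0.131). Usp29 differed by 0.34 (limma adjusted p = 0.0530). H19 was not analysed here.

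The protein family and partners of necdin were measured beside it. None of the 6 tested MAGE genes was higher in TCRb-/- in both experiments, against 27% of all genes. Maged1, whose protein binds a neurotrophin receptor, had 657 and 821 CPM in the TCRb-/- pools of experiments 1 and 2, and 761 and 856 CPM in the WT pools. There were 1.68 and 1.84 Ndn reads per Maged1 read in TCRb-/- and 0.995 and 1.18 in WT. By experiment, limma called 1 of the 6 higher, Maged2 (0.52, adjusted p = 0.0097), and 0 lower. Over all genes the shares called were 8.95% higher and 14.7% lower. Maged1 differed by 0.25 with a limma adjusted p of 0.0692, and 0.0433 with genotype as a term. Of 11 tested partners of necdin 0 were called higher by experiment and 1 lower, against the same 8.95% and 14.7% of all genes. The 1 was E2f1, which fell by 0.67 (limma adjusted p = 0.0214). E2f1 had 19.1 and 9.51 CPM in TCRb-/- and 17.3 and 12.9 CPM in WT. Of 4 partners of Magel2, 1 was called lower, against 14.7% of all genes, and 0 higher. It was the deubiquitinase gene Usp7, which fell by 0.45 (limma adjusted p = 0.0164). Of the 7 genes of the Sm ring, in which SmN takes the place of SmB, 3 were called higher in experiment 2, against 8.95% of all genes. They were Snrpb (0.33, limma adjusted p = 0.0138), Snrpe (0.45) and Snrpd1 (0.24, limma adjusted p = 0.0480). With genotype as a term Snrpd1 was no longer called (limma adjusted p = 0.0507).

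The genes whose levels over the 4 libraries ran most like those of Ndn were on none of the imprinted gene lists. Those lists held 9 described genes beside Ndn and 37 others among the 13912 genes tested, so this absence says little. Likeness was taken as the greatest gap between 2 genes in any of the 4 libraries, after each gene's log2(CPM + 1) values were centred on their mean. The 6 genes nearest to Ndn were Mtag2 (0.07), Pqlc3 (0.08), Tsnaxip1 (0.09), Pltp (0.09), Id1 (0.10) and Gm11681 (0.10). Pltp, a phospholipid transfer protein gene, had 29.2 and 42.1 CPM in the TCRb-/- pools of experiments 1 and 2, and 21.1 and 30.1 CPM in the WT pools. Id1, an inhibitor of basic helix-loop-helix transcription factors, had 12.8 and 17.4 CPM in TCRb-/- and 8.97 and 10.6 CPM in WT. All 6 were far less abundant than Ndn. Mtag2, Pqlc3, Tsnaxip1 and Gm11681 had means of 2.93, 1.61, 1.67 and 2.58 CPM. At such levels the log2(CPM + 1) scale understates changes, so that their likeness to Ndn depends on the scale. The nearest imprinted gene was Nnat, at rank 604 with a gap of 0.31, followed by Dlk1 at rank 1274 and H13 at rank 1759. With 4 libraries such a ranking describes these libraries only.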

How the data were processed

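Per the labels' protocols, RNA from cleared lysate of pooled septal tissue went into SMARTer libraries for low input and was read on a HiSeq instrument. The submitters' processing notes name HISAT2 2.1.0, SAMtools 1.3, HTSeq 0.9.1, R 4.0.5, limma 3.46.0 and the build mm10. The sources used here do not give the annotation, the strand setting or the rule for listing rows. The deposited values were log2 CPM with 0.5 added to the reads and 1 to the total, and gave whole reads for all values within 0.001 reads. The listed rows held 97.6% to 97.8% of the reads, and 17 spike-in rows were left out.

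Reads were rescaled to log2(CPM + 1), genes whose mean reached 1 CPM were kept, and limma 3.58.1 in R 4.3.3 was run on all of them (mean-variance trend, two-sided, Benjamini-Hochberg, threshold 0.05) with genotype or experiment as the only term. The labels tie each replicate number to an experiment, which pairs the libraries. Across genes, the experiment differences of the genotypes correlated at 0.719. Replicates differed by more than counting error (chi-square per degree of freedom 52.1 and 30.3). The fit with the other factor as a block, other pseudocounts, filters and scalings, and fits without 1 library were alternatives. The limma step was tested on simulated counts in which only genotype or only experiment changed. How the fit behaves when both change was not tested. Counting intervals are exact Clopper-Pearson intervals at 95%, and amplified reads are not independent molecules. Lengths, coordinates and promoter windows come from GENCODE M21 and RefSeq for GRCm38, which is mm10. The 10 genes were taken by symbol. Named beyond them were imprinted genes of their clusters, genes of the other lists called by experiment, a few kept whatever their values, and the 6 genes most like Ndn. Klf13, Gm27252, Fan1, Mphosph10, Ttr, H13, Rasgrf1, Kcnk9, Zrsr1, Zdbf2 and Gpr1 were named after their values were seen. All genes, lists and tests were chosen with earlier results of these data known.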

Additional observations from a re-analysis of the deposited data

How the results depend on the processing

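The difference of Ndn between genotypes lay between 0.52 and 0.57 over the settings that used all 4 libraries, and between 0.34 and 0.79 with 1 library left out. Its sign did not change. With both TCRb-/- pools above both WT pools, leaving out 1 library could not have changed it, so this is no support. Leaving out 1 library changed the sign of the genotype difference of 8 of the 10 genes at least once, all but Ndn and Peg3. Such a fit leaves the experiments unbalanced between genotypes, so that the difference between experiments enters the genotype difference. The experiment difference of Ndn was 0.43 in all fits of the main scale, past the threshold with the replicate block (limma adjusted p = 0.0063), and between 0.14 and 0.73 with 1 library left out, where it was called without WT replicate 2. That of Magel2 was called with the replicate block, and without WT replicate 1 (0.94). Snrpn kept its call in 8 of 10 settings with all libraries, and Nnat, Dlk1 and Impact in 9 of 10. For the other named genes, 218 of their experiment differences in settings with all libraries kept their side of the threshold, 3 gained a call and 17 lost it. Peg10 and Zim1 had no value under the filter at 10 CPM. By genotype limma called 0 genes, 2 with the replicate block, and 0 to 47 with 1 library left out (47 without TCRb-/- replicate 1 and 1 without TCRb-/- replicate 2). By experiment it called 3292 genes, 3437 with the replicate block, 629 without a trend, and 1406 to 3390 with 1 library left out (1406 without TCRb-/- replicate 1, 1823 without TCRb-/- replicate 2, 1637 without WT replicate 1). In experiment 2, 1245 of the 3292 were higher. Quantile normalization gave 1634 of 3227 higher, and median-of-ratios scaling 1543 of 3307. Scaling moved the median of all genes by at most 0.05. Of the 10 genes, depth limits Zim1 and Peg10 most, with at most 220 reads a library. Among the others named, Slc22a18 had 10 to 36 and Rtl1 25 to 40.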

Other observations

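Further marker lists of tissue and cell types in and around the septum gave these values for the same libraries. Ependymal markers were higher in TCRb-/- in both experiments for 6 of 7 genes, with medians of 0.36 and 0.17, and astrocyte markers for 6 of 8, with medians of 0.09 and 0.06. Over all genes 27% were higher in both. Microglial markers were higher in both for 4 of 8, oligodendrocyte markers for 1 of 8, and endothelial markers for 3 of 4. Thalamic markers differed between genotypes by a median of -0.17 in experiment 1 and 0.71 in experiment 2, and cortical and hippocampal markers by -0.37 and -0.01. By experiment, limma called 4 of 8 thalamic markers higher, against 8.95% of all genes. It called 5 of 8 cortical and hippocampal markers lower, against 14.7% of all genes. Meningeal fibroblast markers summed to between 24.1 and 30.9 CPM in the 4 libraries. Of the blood list 1 of 8 genes was listed, with 2.20 to 3.74 CPM.

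The number of Ndn reads per read of each of the other 9 genes separated the genotypes without overlap in every case. Per Impact read there were 2.15 and 2.02 in TCRb-/- replicates 1 and 2 and 1.19 and 1.35 in WT replicates 1 and 2. Per Nnat read there were 1.50 and 1.65 in TCRb-/- and 1.15 and 1.12 in WT. By group means this was the smallest contrast of the 9, and the nearest values of the genotypes were closer for Zim1 (266 in TCRb-/- and 215 in WT). These ratios share the Ndn counts that led to the choice of the genes and are no independent evidence.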
